A study of Mus musculus with 6 samples.

Results

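The immunoglobulin variable (V) segments are the gene pieces that encode most of the antigen-binding domain of an antibody chain. They were taken here as every row of the gene count table that the authors' annotation column types as IG_V_gene, which gave 218 of 55573 genes. Of these, 113 belong to the heavy-chain locus (Ighv), 100 to the kappa light-chain locus (Igkv) and 3 to the lambda light-chain locus (Iglv), and 2 carry symbols of no locus (Gm43218 and Gm42543, at most 44 counts together in a library). The segments were measured in bulk RNA from LSK cells, the mouse bone marrow fraction that lacks lineage markers and carries both Sca-1 and c-Kit, and that holds the blood stem cells and early progenitors. The mice were C57BL/6J animals aged 3 months. There were 3 wild-type (Etv6+/+) libraries and 3 heterozygous libraries, which the genotype field writes as Etv6+/- and the series text as Etv6 R355X/+. Etv6 is an ETS-family transcription factor that represses its targets. No agent, reporter or Cre is named for either genotype, and nothing says whether replicates of a genotype came from separate animals, so each p-value measures only the spread between these libraries, which may be technical.

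A B cell builds each antibody gene by joining 1 of many V segments to a J segment, with a D segment between them at the heavy-chain locus, through the RAG recombinase. A cell and its descendants then transcribe mainly the V segment they joined, so bulk V counts reflect which joined segments the cells in the tube carry, how many such cells there are and how much RNA each makes. Blood stem cells as a rule carry no complete antibody gene, while plasma cells make very large amounts of antibody RNA. Antibody genes can also give unjoined germline transcripts, and gene counts do not tell these from joined ones. In bulk RNA, fewer cells of a type and less RNA per cell cannot be told apart.

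The segments lie in 3 clusters of build GRCm38 (mm10), by the GENCODE vM21 annotation. The Ighv segments span 2.42 Mb at chr12:113578504-116000461, all on the minus strand. The Igkv segments span 3.15 Mb at chr6:67555497-70704177, 38 on the plus strand, which is also the strand of the kappa constant gene Igkc, and 62 on the minus strand. The Iglv segments span 0.18 Mb at chr16:19085017-19260859 on the minus strand. Etv6 lies on the same chromosome as the kappa cluster, 63.3 Mb beyond its last segment.

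The sequences that follow are the last 240 bases of the spliced coding parts of the segments that the results turn on, from GENCODE vM21 transcripts on GRCm38, 5′ to 3′ on the coding strand. The first pair, Igkv15-103 (chr6:68437440-68437925, plus strand) and Ighv7-1 (chr12:113896408-113896946, minus strand), was high in every library. The second pair, Ighv11-2 (chr12:114048241-114048812, minus strand) and Igkv14-126 (chr6:67896172-67896642, plus strand), is known in mice to be used together. The last, Igkv1-117 (chr6:68121046-68121827, plus strand) and Igkv4-72 (chr6:69226854-69227433, minus strand), were lower in the mutant. Capitals mark the germline bases after the last cysteine codon, where the third complementarity-determining region (CDR3) begins and joining adds or removes bases. The segments differ in how much of CDR3 they bring, from 8 bases in Ighv11-2 to 25 in Igkv4-72.
Igkv15-103: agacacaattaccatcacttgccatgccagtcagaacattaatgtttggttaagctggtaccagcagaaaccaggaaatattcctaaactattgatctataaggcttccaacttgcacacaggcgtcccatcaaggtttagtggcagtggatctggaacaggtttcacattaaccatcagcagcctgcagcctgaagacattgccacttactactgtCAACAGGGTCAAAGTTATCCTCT
Ighv7-1: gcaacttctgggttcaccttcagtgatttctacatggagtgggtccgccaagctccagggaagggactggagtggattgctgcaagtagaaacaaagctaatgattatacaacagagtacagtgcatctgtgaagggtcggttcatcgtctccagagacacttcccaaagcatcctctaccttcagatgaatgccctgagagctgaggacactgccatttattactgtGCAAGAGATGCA
Ighv11-2: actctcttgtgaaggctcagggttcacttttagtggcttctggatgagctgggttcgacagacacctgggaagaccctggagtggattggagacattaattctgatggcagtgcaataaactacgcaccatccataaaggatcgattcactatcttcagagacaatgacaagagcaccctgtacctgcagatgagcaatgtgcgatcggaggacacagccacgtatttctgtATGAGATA
Igkv14-126: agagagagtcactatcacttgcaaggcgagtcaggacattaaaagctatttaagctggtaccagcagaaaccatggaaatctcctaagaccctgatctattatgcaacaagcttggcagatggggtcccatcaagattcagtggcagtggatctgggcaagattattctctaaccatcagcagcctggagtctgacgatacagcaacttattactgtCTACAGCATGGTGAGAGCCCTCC
Igkv1-117: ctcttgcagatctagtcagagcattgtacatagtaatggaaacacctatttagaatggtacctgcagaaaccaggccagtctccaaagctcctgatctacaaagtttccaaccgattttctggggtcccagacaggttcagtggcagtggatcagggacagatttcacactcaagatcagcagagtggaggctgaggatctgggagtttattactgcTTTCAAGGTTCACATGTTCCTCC
Igkv4-72: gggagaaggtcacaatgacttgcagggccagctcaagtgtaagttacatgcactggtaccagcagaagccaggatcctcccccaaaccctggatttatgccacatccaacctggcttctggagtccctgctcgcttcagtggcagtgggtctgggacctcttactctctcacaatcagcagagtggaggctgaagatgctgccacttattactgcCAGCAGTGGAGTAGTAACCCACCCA

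How far reads can be assigned to 1 segment depends on how alike the segments are. In coding sequence, the median identity of a segment to its nearest relative of the same locus was 94.8%. With identity rounded to 1 decimal, at least 98% identity to another segment was found for 24 of them, 16 at the heavy-chain and 8 at the kappa locus. Ighv1-16 and Ighv1-24, which differ at 6 of 294 aligned bases, reach that limit only by rounding. No 2 segments were identical. Igkv15-103 was at most 77.0% identical to another Igkv segment and Ighv7-1 at most 88.9% to another Ighv segment. The segment values were nearly all whole: 8 of 1109 values above 0 (0.721%) departed from a whole number by more than 0.005, against 20.3% of values over all genes tested. The 8 fell in 2 segments. The authors' values thus split few reads between annotated V segments, although a read changed by joining or mutation can still be placed on a near relative.

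The library totals ran from 45.2 to 92.2 M expected counts, and V segments held 0.0628% to 0.108% of them, which came to 30378 to 70966 counts. Kit (351 to 452 CPM, counts scaled to a common library size) and Ly6a, the Sca-1 gene (71.7 to 93.5 CPM), were present in every library, and all 12 LSK markers listed passed the count filter. Markers of antibody-making cells were present too, and none of those found in the table was at 0. The 13 B cell markers in the table summed to 133.1 to 161.7 CPM in wild type against 177.5 to 306.7 CPM in the mutant. The 13 plasma cell markers summed to 422.4 to 506.8 and 420.0 to 666.5 CPM, of which Jchain, the joining chain of secreted IgM and IgA, made up 187 to 258 and 197 to 370 CPM. Etv6 itself measured 454, 419 and 400 CPM in wild-type replicates 1 to 3 and 305, 341 and 386 CPM in mutant replicates 1 to 3, with a log2 fold change of -0.30 (SE 0.086, edgeR adjusted p = 0.245).

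The kappa locus supplied most of the V RNA and the lambda locus the least, in every library. Per kilobase of exon, Igkv held 55.7% to 65.2% of the V level, Ighv 32.4% to 38.4% and Iglv 1.30% to 6.09%. Summed Ighv levels were 354, 396 and 224 CPM in wild-type replicates 1 to 3 and 263, 386 and 378 CPM in mutant replicates 1 to 3, or 324 ± 89.7 and 342 ± 69.3 CPM (SD, n = 3). The lowest wild-type library lay below all mutant libraries and the highest above them, so the genotypes overlapped.

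Kappa levels overlapped as well. Summed Igkv levels were 626, 647 and 369 CPM in wild-type libraries and 529, 565 and 590 CPM in the mutant, or 547 ± 154 and 561 ± 30.5 CPM (SD, n = 3). Wild-type replicate 3 was the lowest at both large loci. The 3 lambda segments summed to 13.4, 17.6 and 30.2 CPM in wild type against 19.6, 64.3 and 23.3 CPM in the mutant, or 20.4 ± 8.71 and 35.7 ± 24.8 CPM, and mutant replicate 2 alone lay above all other libraries. The log2 ratio of the mutant to the wild-type mean was 0.08 for Ighv, 0.04 for Igkv and 0.81 for Iglv, which falls to 0.07 without mutant replicate 2.

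**Figure D1:**
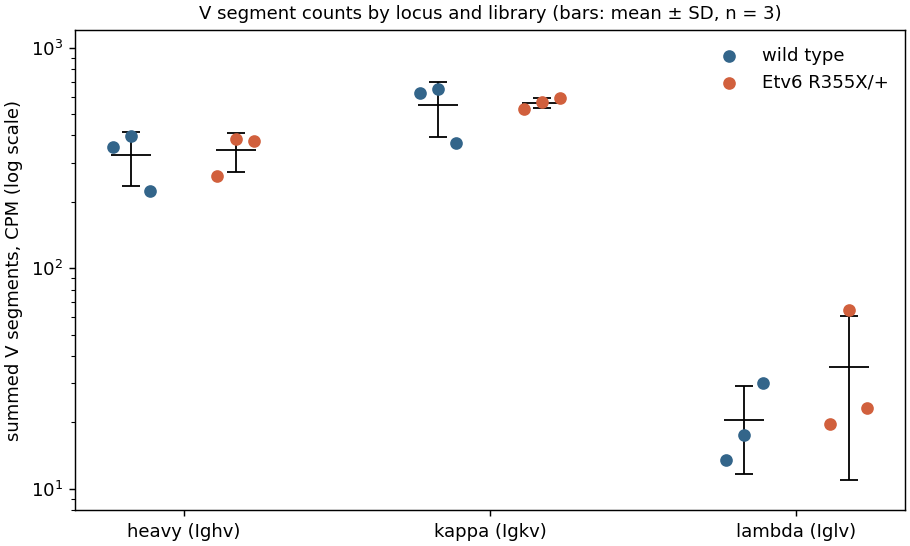
Summed CPM of the V segments of each locus (vertical axis, log scale) in each library, with points for libraries and bars for mean ± SD (n = 3). Kappa stands above heavy and heavy above lambda in all 6 libraries, and the genotypes overlap at each locus, with mutant replicate 2 at 64.3 CPM the highest for lambda.

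V levels kept a similar ratio to those of the constant (C) genes, which encode the other end of a joined antibody RNA. Gene counts do not show how much of either came from unjoined transcripts. Igkv summed to 31.4, 33.1 and 31.0 CPM per 100 CPM of Igkc in wild type and 26.9, 32.8 and 32.6 in the mutant. Mutant replicate 1 was the lowest, and no other library lay below 31.0. Ighv summed to 12.3, 14.6 and 12.4 CPM per 100 CPM of the heavy constant genes in wild type and 10.1, 13.4 and 15.1 in the mutant, again lowest in mutant replicate 1. At the lambda locus the ratio was 26.4, 31.4 and 34.3 in wild type and 23.5, 31.9 and 27.2 in the mutant. The genotypes overlapped in all 3 ratios. Summed J segments held 0.883 to 1.55 CPM and the D segments were listed at 0 in every library.

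Among the constant genes themselves, 11 of 13 were tested, of which 1 passed as higher and 1 as lower in the mutant, where 0.266% of all genes passed in either direction. Iglc1, a lambda constant gene, measured 22.4, 25.4 and 25.7 CPM in wild-type libraries and 43.7, 60.4 and 58.6 CPM in the mutant (edgeR adjusted p = 0.00321). Igha, the constant gene of IgA, measured 455, 323 and 252 CPM in wild type against 185, 144 and 159 CPM in the mutant (adjusted p = 0.0390), a call that limma-voom did not make, while DESeq2 called both genes. Ighm, the constant gene of IgM, measured 1623, 2143 and 1297 CPM against 2165, 2510 and 2171 CPM, with mutant libraries all above wild type (adjusted p = 0.335), and Igkc measured 1996, 1951 and 1192 against 1966, 1723 and 1812 CPM (adjusted p = 0.874).

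A few segments held much of the V level in every library. The 10 highest segments of a library held 49.1%, 72.7% and 57.7% of the V level per kilobase in wild-type replicates 1 to 3 and 64.1%, 53.5% and 64.5% in mutant replicates 1 to 3. It took 11, 4 and 8 segments in wild type and 5, 9 and 5 in the mutant to make up 50% of the level, out of 175 to 195 segments above 0. Wild-type replicate 2 was the most concentrated by both measures, and the genotypes overlapped.

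The effective number of segments, the inverse Simpson index of the shares, says how many equally used segments would be as concentrated. It was 22.3, 11.5 and 20.7 in wild type and 10.97, 20.9 and 13.5 in the mutant, or 18.2 ± 5.83 and 15.1 ± 5.16 (SD, n = 3). Within Ighv it was 6.24 to 14.0 and 7.15 to 13.1, and within Igkv 5.78 to 11.1 and 5.30 to 9.06. Ighv was most concentrated in wild-type replicate 2 and Igkv in mutant replicate 1.

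Igkv15-103 and Ighv7-1 were the constant part of that dominance. Igkv15-103 measured 162, 207 and 91.8 CPM in wild-type replicates 1 to 3 and 98.2, 166 and 206 CPM in mutant replicates 1 to 3. Ighv7-1 measured 74.3, 94.99 and 38.4 CPM in wild-type libraries and 40.7, 78.5 and 90.4 CPM in the mutant. Both were lowest in wild-type replicate 3 and mutant replicate 1, and both overlapped between genotypes, with log2 fold changes of 0.03 (SE 0.28) and 0.01 (SE 0.32).

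The 2 segments lie on different chromosomes yet kept nearly the same ratio to each other. Igkv15-103 stood at 2.18, 2.18 and 2.39 times the CPM of Ighv7-1 in wild type and at 2.42, 2.12 and 2.28 times in the mutant. Together they held 16.8% to 29.7% of the V level per kilobase. This pairing was noticed after the values were seen, the 6 ratios share each library's scaling, and gene counts do not show whether the same cells carry both.

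With these 2 segments set aside, the libraries differed more in concentration. The effective number became 44.5, 12.3 and 27.7 in wild type and 9.26, 37.4 and 20.7 in the mutant. By this number, mutant replicate 1 and wild-type replicate 2 were the most concentrated with and without the 2 segments. This recalculation was added after seeing the data.

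Few other segments were as even. Over the 40 highest segments, the coefficient of variation across the 6 libraries was 21.2% for Igkv1-110, 25.8% for Igkv1-117, 29.4% for Ighv3-6, 32.4% for Igkv15-103 and 35.2% for Ighv7-1, and it reached 234% for Ighv1-11. Libraries of different genotype shared 9 to 15 of their 20 highest segments and libraries of the same genotype 10 to 12. Igkv15-103, Ighv7-1, Igkv1-110, Igkv1-117 and Igkv5-39 were among the 20 highest in all 6 libraries, whereas 17 of the 45 segments that reached any such list were in 1 only. Igkv1-110, Ighv3-6 and Ighv1-11 fall outside the rule for named genes and were chosen after their values were seen.

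**Figure D2:**
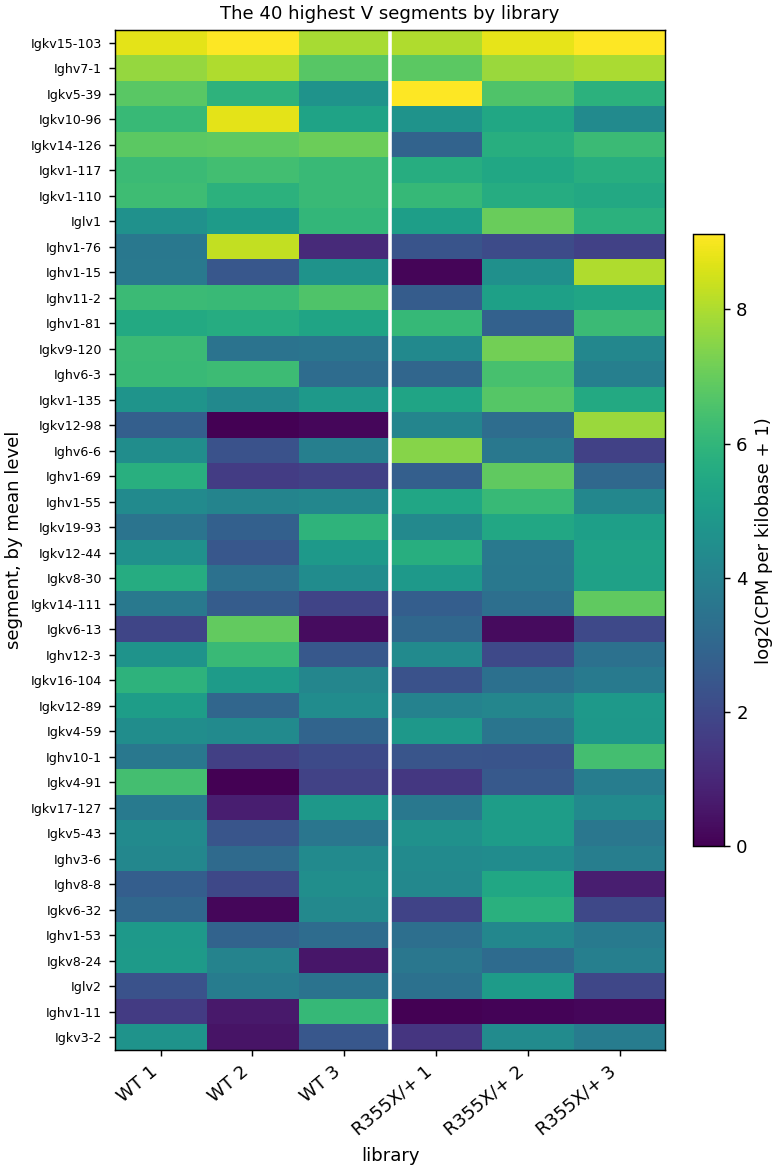
Level of the 40 highest V segments (rows, by mean level) in each library (columns, with a white line between genotypes), as log2(CPM per kilobase + 1). The top rows, Igkv15-103 and Ighv7-1, are bright throughout, while rows such as Ighv1-76, Igkv12-98 and Igkv6-13 are bright in a single library.

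Some segments stood out in 1 library. Such segments ranked first at a large locus in wild-type replicate 2 and in mutant replicates 1 and 3. In the other libraries, Ighv7-1 and Igkv15-103 ranked first. In wild-type replicate 2, Ighv1-76 stood at 113 CPM against 0.411 to 4.26 CPM in the other 5 libraries, which put 93.2% of its 6-library level in that library. The same library held Igkv10-96 at 153 CPM against 7.02 to 25.4 CPM elsewhere. With Igkv15-103 and Ighv7-1, these were the 4 segments that made up 50% of the V level there.

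Mutant replicate 1 was led by Igkv5-39, at 193 CPM against 8.56 to 37.9 CPM elsewhere. That 1 segment held 23.8% of the library's V counts (Wilson 95% interval 23.5% to 24.1%) and 38.4% of its Igkv level per kilobase, compared with 2.50% to 6.50% in the other libraries. Its heavy-chain leader was Ighv6-6 at 62.1 CPM against 0.847 to 7.52 CPM. The interval covers counting error only, since amplified reads are not independent molecules.

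Mutant replicate 3 held Ighv1-15 at 92.6 CPM, compared with 0.0343 to 8.60 CPM elsewhere. It also held Igkv12-98 at 73.7 CPM, which was at 0 in wild-type replicate 2 and at most 5.74 CPM in any other library, and Igkv14-111 at 43.6 CPM against 0.985 to 4.37 CPM. Ighv1-15 differs at 7 of 351 coding bases from Ighv1-23, which stayed at 0.269 to 0.696 CPM. In mutant replicate 2, Igkv9-120 and Ighv1-69 ranked second at their loci. Igkv9-120 stood at 50.3 CPM there against 3.60 to 25.6 CPM elsewhere, and Ighv1-69 at 41.3 CPM against 0.717 to 18.4 CPM. Iglv1, which ranked first at the lambda locus in every library, stood at 51.3 CPM there against 9.30 to 25.5 CPM elsewhere.

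Wild-type replicate 1 held Igkv4-91 at 29.9 CPM against 0 to 4.84 CPM elsewhere. In wild-type replicate 3, the heavy-chain segment Ighv1-11 stood at 23.6 CPM (1151 counts) against at most 0.701 CPM elsewhere, which left it outside the test because too few libraries held enough counts. Igkv4-91, Igkv9-120, Igkv12-98, Igkv14-111 and Ighv1-69 fall outside the rule for named genes and were chosen after their values were seen. Ighv1-81, among the 5 highest heavy-chain segments, was spread more evenly than these, at 16.0, 17.3 and 13.9 CPM in wild type against 23.9, 2.15 and 25.9 CPM in the mutant.

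**Figure D3:**
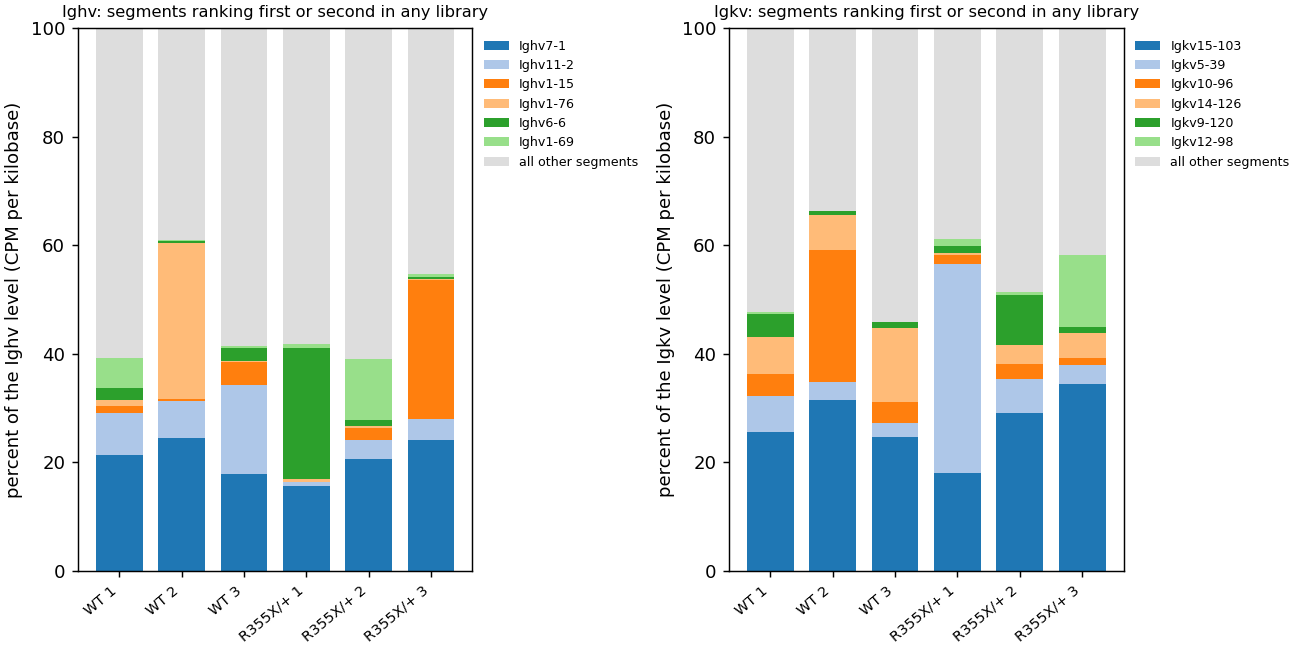
Percent of the Ighv level (left) and the Igkv level (right), in CPM per kilobase, held in each library by the segments that ranked first or second in any library, with the rest in grey. Ighv7-1 and Igkv15-103 form a base in all 6 bars, topped by Ighv1-76 and Igkv10-96 in wild-type replicate 2, by Ighv6-6 and Igkv5-39 in mutant replicate 1 and by Ighv1-15 in mutant replicate 3.

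The share of segments that rested on a single library can be set beside that of all genes. Of the 158 segments with enough counts to test, 43 (27.2%) had over 50% of their 6-library level in 1 library, compared with 51 of 20646 genes (0.247%). The count was 13 in wild-type replicate 1, 9 in replicate 2 and 0 in replicate 3, and 5, 10 and 6 in mutant replicates 1 to 3. The count filter asks for enough counts in at least 3 libraries, so segments that rest most on 1 library can be missing here. Ighv1-11, with 96.1% of its level in wild-type replicate 3, was not counted. The segment just inside the limit had 50.2% in 1 library and the one just outside had 49.3%. Highest and lowest library differed by less than 3 times in 15 segments and by more than 10 times in 76, and 27 more were at 0 in some library. The median SD of log2 CPM within a genotype was 1.41 for these segments and 0.186 for all genes tested.

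By family, which groups segments of related sequence, the heavy-chain locus was led by Ighv1. Its 53 members held 42.1% of the Ighv level on average and 36.6% to 47.3% in single libraries, with no single leader: its highest member, Ighv1-76, made up 14.3% of the family. Ighv7 held 21.5%, 96.3% of it in Ighv7-1. Ighv6 held 9.84% on average and 25.4% in mutant replicate 1, and Ighv11 held 7.17%.

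At the kappa locus, 7 families held at least 5% of the Igkv level. Igkv15, with Igkv15-103 as its only member, held 27.2% on average, and Igkv1, with 10 members, held 12.4%. Igkv5 averaged 11.7% but held 40.5% in mutant replicate 1 and at most 8.87% elsewhere. Igkv12 averaged 7.03% and reached 17.8% in mutant replicate 3, while Igkv10 averaged 6.86% and reached 24.8% in wild-type replicate 2. Igkv14 held 7.74%. Igkv4, the largest kappa family with 26 members, held only 5.31%.

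The lambda locus has 1 segment per family here. Iglv1 held 76.4% of the Iglv level on average, Iglv2 15.9% and Iglv3 7.73%. Iglv1, which in mice joins to Iglc1 or Iglc3, measured 9.30, 12.2 and 25.5 CPM in wild-type libraries and 13.3, 51.3 and 21.6 CPM in the mutant (log2 fold change 0.87, SE 0.46, edgeR adjusted p = 0.546). Its highest libraries, mutant replicate 2 and wild-type replicate 3, were also the highest for Iglc3, at 98.5 and 43.3 CPM against 12.0 to 17.5 CPM elsewhere. Iglv2 measured 1.45, 4.79 and 3.74 CPM in wild type against 3.53, 11.3 and 1.03 CPM in the mutant. Iglv3 measured 2.68, 0.532 and 0.903 CPM against 2.77, 1.71 and 0.713 CPM. Both overlapped between genotypes.

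Position along the kappa cluster also went with a few segments. The 33 segments farthest from the J segments, at 1915.4 to 3167.1 kb and including Igkv15-103, held 68.5%, 77.2% and 74.3% of the Igkv level in wild type and 38.6%, 69.8% and 78.0% in the mutant. Mutant replicate 1 alone was low. The 34 nearest segments, which include Igkv5-39 at 822.1 kb, held 48.2% there and 11.5% to 20.6% in the other libraries. Segments on the strand of Igkc, which join by deletion, held 62.3%, 54.9% and 65.6% in wild type and 38.1%, 67.7% and 76.5% in the mutant. At the heavy-chain locus the 38 nearest segments held 27.2% to 47.1% and the 37 farthest 20.1% to 41.8%.

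Between genotypes, 3 of the 158 tested segments passed edgeR's quasi-likelihood test at an adjusted p under 0.05, 1 higher and 2 lower in the mutant. All 3 are kappa segments: 3 of 72 tested at that locus, 0 of 82 at the heavy-chain locus and 0 of 3 at the lambda locus. Over all 20646 genes tested, 0.266% passed, 0.189% as higher and 0.0775% as lower. The 1 higher segment, Igkv3-4, entered the test through its mutant libraries alone. A fit that required at least 10 counts in every library called 2 of 79 segments, 0 of them higher, beside 0.3% of genes. At an unadjusted p under 0.05 in the main fit, 38 of the 158 segments passed, 19 of them heavy-chain, 19 kappa and 0 lambda, beside 10.6% of all genes. That number depended on the fit. It was 14 with robust estimation in edgeR, 24 by limma-voom, 28 by DESeq2 and 92 of 215 with no filter on low counts. The share of all genes was not taken for these 4 fits. DESeq2 called 7 segments, the same 3 with Igkv2-109, Ighv1-50, Ighv1-61 and Ighv5-12, beside 1.59% of all genes, and limma-voom called Igkv1-117 alone, beside 0.199%.

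Genotypes did not overlap in 17 segments, which is 10.8% of those tested, beside 16.3% of all genes. The mutant lay above in 9 of them, beside 8.44% of all genes, and below in 8, beside 7.86%. The log2 fold change was above 0 in 90 of the 158, with a median of 0.13, beside 0.0019 over all genes. The other 60 segments, 3 of them at 0 in every library, had too few counts in too few libraries to be tested.

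Igkv3-4 was near absent in wild type and present in every mutant library. It had 2, 4 and 1 counts in wild-type replicates 1 to 3 and 160, 382 and 148 counts in mutant replicates 1 to 3, or 0.0326, 0.0819 and 0.0205 CPM against 1.83, 7.33 and 3.30 CPM. Every mutant library stood above every wild-type library. It passed the count filter through its mutant libraries alone, so the filter could admit it only where the genotypes differ, and the fit is given beside the counts rather than as support for them. The log2 fold change was 6.48 (SE 0.66, edgeR adjusted p = 0.00321), and the pooled counts of 690 and 7 gave a ratio of 84.9 with an exact 95% interval of 40.99 to 212 that covers counting error only. Limma-voom gave an adjusted p of 0.160, within a range of 7.46e-18 to 0.160 over all alternatives. With no filter on low counts the adjusted p was 3.01e-16, in a fit that called 49 segments.

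In the genome, Igkv3-4 (chr6:70671788-70672377, plus strand) lies beside Igkv3-3 (chr6:70686946-70687534, plus strand), its nearest relative in sequence. Igkv3-3 had 2, 1 and 2 counts in wild type and 6, 5 and 6 in the mutant, too few to test. They differ at 21 of 359 coding bases. The last 300 of those bases are printed to show how reads of the 2 can be told apart, with the 19 differing bases in this stretch in capitals.
Igkv3-4: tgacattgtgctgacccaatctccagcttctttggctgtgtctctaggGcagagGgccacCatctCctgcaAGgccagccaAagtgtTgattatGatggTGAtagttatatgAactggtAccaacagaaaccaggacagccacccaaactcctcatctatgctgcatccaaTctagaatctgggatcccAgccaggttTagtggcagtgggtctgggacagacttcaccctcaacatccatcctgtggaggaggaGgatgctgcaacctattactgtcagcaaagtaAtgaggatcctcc
Igkv3-3: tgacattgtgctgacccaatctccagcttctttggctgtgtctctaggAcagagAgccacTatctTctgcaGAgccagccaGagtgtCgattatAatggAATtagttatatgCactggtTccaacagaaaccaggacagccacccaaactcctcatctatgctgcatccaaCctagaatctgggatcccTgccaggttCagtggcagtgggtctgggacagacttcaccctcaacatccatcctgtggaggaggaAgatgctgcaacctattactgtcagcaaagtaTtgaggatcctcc

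Of the other Igkv3 segments, Igkv3-3 also lay higher in every mutant library, at the few counts just given, and the rest overlapped. Igkv3-2 measured 9.43, 0.143 and 1.72 CPM in wild-type libraries and 0.629, 7.69 and 5.06 CPM in the mutant, and Igkv3-5 measured 12.8, 1.495 and 1.91 against 0.0915, 1.61 and 2.12 CPM. The genotypes overlapped in both, as in Igkv3-1, Igkv3-7, Igkv3-9, Igkv3-10 and Igkv3-12. These members were named as neighbours of a called segment, after their values were seen.

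Igkv1-117, one of the even and abundant segments, fell in the mutant. It measured 30.0, 33.0 and 29.1 CPM in wild-type replicates 1 to 3 and 20.2, 17.1 and 20.6 CPM in mutant replicates 1 to 3, with all wild-type libraries above all mutant ones. The log2 fold change was -0.67 (SE 0.10, edgeR adjusted p = 0.0264), and the spread within each genotype was 2.02 and 1.92 CPM (SD, n = 3). Its nearest relative Igkv1-110, 97.2% identical, measured 31.2, 22.7 and 28.5 CPM against 27.5, 19.95 and 17.9 CPM and overlapped (log2 fold change -0.33, SE 0.16, adjusted p = 0.514). The call for Igkv1-117 was lost without wild-type replicate 1 (adjusted p = 0.105), wild-type replicate 2 (0.175), mutant replicate 1 (0.0642) or mutant replicate 2 (0.112), within a range of 3.07e-07 to 0.175.

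Igkv4-72, a minor member of the Igkv4 family, also fell. It had 84, 161 and 155 counts in wild type and 34, 33 and 18 in the mutant, or 1.37, 3.30 and 3.18 CPM against 0.389, 0.633 and 0.401 CPM. The genotypes did not overlap. The log2 fold change was -2.46 (SE 0.38, edgeR adjusted p = 0.0311). Leaving out any library other than wild-type replicate 1 ended the call, with adjusted p from 0.0717 to 0.148.

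**Figure D4:**
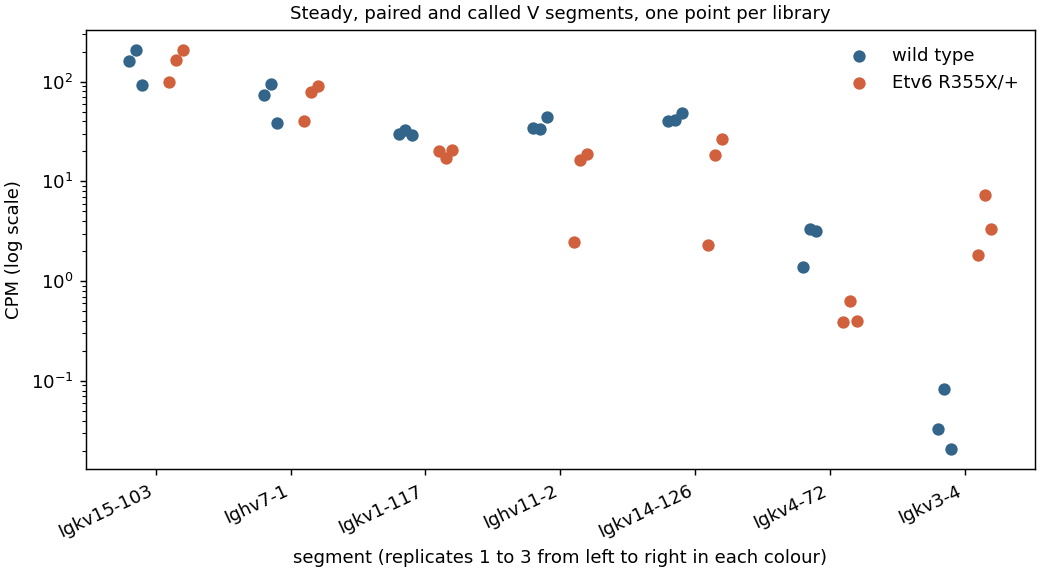
CPM (log scale) of 7 V segments in each library, with wild type in blue, mutant in orange and replicates 1 to 3 from left to right. Igkv15-103 and Ighv7-1 overlap between genotypes, Igkv1-117 and Igkv4-72 are lower and Igkv3-4 higher in the mutant, and Ighv11-2 and Igkv14-126 follow each other with mutant replicate 1 lowest.

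Ighv11-2 and Igkv14-126 stood lower in all 3 mutant libraries but did not pass the test. In mice these 2 segments encode the heavy and light chain of antibodies to phosphatidylcholine that are typical of B-1a cells, a long-lived, self-renewing B cell population. Ighv11-2 measured 34.01, 33.4 and 44.7 CPM in wild type against 2.46, 16.4 and 18.7 CPM in the mutant. Igkv14-126 measured 40.5, 41.01 and 47.97 CPM in wild-type libraries and 2.30, 18.4 and 26.5 CPM in the mutant. Both were even among wild-type libraries and lowest in mutant replicate 1.

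Their ratio changed little. Igkv14-126 stood at 1.19, 1.23 and 1.07 times Ighv11-2 in wild type and 0.935, 1.13 and 1.41 times in the mutant. Their joint share of the V level per kilobase was 6.99%, 6.52% and 13.9% in wild type and 0.529%, 3.18% and 4.25% in the mutant. The log2 fold change was -1.60 (SE 0.51, edgeR adjusted p = 0.305) for Ighv11-2 and -1.48 (SE 0.57, adjusted p = 0.406) for Igkv14-126.

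Mutant replicate 1 bears on both values. Without it, the log2 fold change of Ighv11-2 was -1.09 with an adjusted p of 0.0332, and that of Igkv14-126 was -0.95 with an adjusted p of 0.0642. Over all alternatives the adjusted p ran from 4.20e-06 to 0.607 for Ighv11-2 and from 0.000116 to 0.667 for Igkv14-126. Ighv11-1, which differs from Ighv11-2 at 4 of 353 coding bases, had 139, 112 and 187 counts in wild type and 12, 81 and 72 in the mutant, so its counts may hold reads of Ighv11-2.

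A second pair known in mice for the same antigen did not keep a ratio. Ighv12-3 measured 8.74, 25.3 and 1.64 CPM in wild type against 6.92, 1.07 and 3.41 CPM in the mutant. Igkv4-91 measured 29.9, 0 and 0.903 CPM against 0.641, 1.73 and 4.84 CPM. The ratio of the second to the first ran from 0 to 3.42. This pair was chosen after the values of its members were seen.

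Several segments without overlap came near the threshold. Ighv1-50 measured 0.685, 0.737 and 0.349 CPM in wild-type libraries and 1.65, 2.03 and 3.68 CPM in the mutant (edgeR adjusted p = 0.0716). Igkv2-109 measured 0.424, 0.676 and 1.07 against 3.24, 6.68 and 1.83 CPM (adjusted p = 0.0802), and Ighv1-61 measured 0.669, 0.287 and 0.103 against 2.72, 4.39 and 1.29 CPM (adjusted p = 0.0864). Mutant libraries were the higher ones in all 3. Igkv16-104 was the other way round, at 22.3, 11.6 and 6.59 CPM against 1.46, 3.57 and 4.79 CPM (adjusted p = 0.139). These 4 segments were chosen after their values were seen.

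Genes that act on antibody loci did not pass the test at the threshold used. Rag1, a subunit of the recombinase that joins V segments, measured 14.3, 14.6 and 15.7 CPM in wild type against 43.1, 27.0 and 23.0 CPM in the mutant (edgeR adjusted p = 0.0617). Rag2, the other subunit, had an adjusted p of 0.113. Of the 12 recombination genes listed, all were tested, 0 were called, 3 passed at an unadjusted p under 0.05 and 9 had a log2 fold change above 0 (median 0.16). Over all genes, 0.266% were called and 10.6% passed unadjusted. DESeq2 called Rag1 alone, beside 1.59% of all genes, and limma-voom 0. Xrcc5, which binds broken DNA ends (adjusted p = 0.406), and Dntt, which adds bases at the joins (adjusted p = 0.544), came next.

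Of the 14 transcription factors listed for V promoters and antibody loci, 0 were called, 6 passed unadjusted, beside 10.6% of all genes, and 10 had a log2 fold change above 0 (median 0.13), with 0 called by DESeq2 or limma-voom. Pax5, which fixes B cell identity, measured 18.8, 18.8 and 25.0 CPM in wild-type libraries and 66.8, 40.98 and 26.5 CPM in the mutant (adjusted p = 0.168). Ebf1, which acts in early B cells (adjusted p = 0.169), Pou2af1, the octamer coactivator (0.200), and Pou2f2, an octamer-binding factor (0.319), followed. Spi1, the myeloid and B cell factor PU.1, also passed unadjusted and lay the other way, at 44.3, 41.7 and 46.8 CPM against 40.5, 37.5 and 35.7 CPM (adjusted p = 0.346). It falls outside the rule for named genes. Over both lists, all 3 mutant libraries lay above all wild-type libraries for Rag1, Rag2, Xrcc5, Pax5, Ebf1, Pou2af1 and Ikzf1, with mutant replicate 1 the highest. They lay below all wild-type libraries for Spi1 and Yy1. Of all genes, 8.44% lay above and 7.86% below without overlap. Ikzf1 and Yy1 also fall outside the rule for named genes.

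Marker lists of B-lineage cells stood as follows beside these V segments, to be read against the 0.266% of all genes called by edgeR, the 10.6% that passed unadjusted and the 1.59% called by DESeq2. The 11 pro-B and pre-B markers, which include both Rag genes, summed to 881.0 to 973.5 CPM in wild type against 1055 to 1404 CPM in the mutant. Dntt, Cd93 and Erg made up most of these sums, so the sums say little of the other members. Their wild-type means were 344.1, 373.0 and 126.8, of a list mean of 942.0 CPM. For the mutant they were 406.5, 453.0 and 137.3, of 1184 CPM. Log2 fold changes were 0.24, 0.28 and 0.11 for these genes and ran from 0.47 (Il7r) to 1.57 (Vpreb2) for the rest. By edgeR 0 of the 11 markers were called, 9 passed unadjusted and all 11 had a log2 fold change above 0 (median 0.95). DESeq2 called Rag1, Vpreb2 and Cd93. Vpreb1, a surrogate light chain gene, had an adjusted p of 0.135. Of the 13 B cell markers, 0 were called, 7 passed unadjusted and 12 had a log2 fold change above 0 (median 0.42), and DESeq2 called Bank1. Pax5 and Ebf1, among those that passed unadjusted, are also counted in the transcription factor list. Of the 13 plasma cell markers, 0 were called, 4 passed unadjusted, Pou2af1 and Mzb1 above 0 and Xbp1 and Fkbp11 below, and 8 in all were above 0 (median 0.12), with 0 called by DESeq2. Pou2af1 and Irf4 are also in the transcription factor list, so the lists do not count separate genes. Limma-voom called 0 in these lists. An unadjusted excess was not limited to B-lineage lists. Of 8 macrophage and dendritic cell markers, 0 were called by edgeR or limma-voom, 7 passed unadjusted and 6 were above 0. DESeq2 called C1qa, C1qc and Cd68, higher in the mutant, and Siglech, lower. Of 8 neutrophil markers, which summed to 2163 to 3662 CPM over the 6 libraries, 0 passed unadjusted, and of 10 T cell markers 2 did. The part of these lists in the V segment results was not tested.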

How the data were processed

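Total RNA of sorted LSK cells went through single-primer isothermal amplification (SPIA), shearing and library building, per the labels' protocols. The values are expected counts per gene as deposited by the authors. Trim Galore 0.60, STAR 2.7, RSEM 1.31 and build mm10 are listed in the submitters' processing notes. The annotation release is not given in those sources. The deposited counts are labelled as unstranded, and SPIA does not mark strand. A further 92 spike-in rows were left out.

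Expected counts were rounded and filtered with filterByExpr, which keeps genes with enough counts in at least 3 libraries and left 20646. Libraries were TMM-scaled, and genotypes were compared over all these genes by edgeR's quasi-likelihood test (edgeR 4.0.16, limma 3.58.1, R 4.3.3), two-sided and without covariates. A call is a Benjamini-Hochberg adjusted p under 0.05. DESeq2 1.42.0 was an alternative. The fit was tested on simulated data. CPM uses the TMM-scaled library size. Levels between segments are CPM per kilobase of GENCODE vM21 exons, which matched all 218 segments (exon length 294 to 501 bases) and 55394 of 55573 rows by identifier. Sums and shares over segments carry no p-value. Identity comes from global alignments of coding sequences.

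The text names segments past the threshold, the 5 highest of each locus, those highest of their locus in any library, families with at least 5% of their locus, and up to 4 members of each pathway list. Segments, lists and rules were chosen with earlier results of these data known. Libraries of 1 genotype differed beyond sampling noise (chi-square per gene 11.2 to 46.5), so each counts once.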

Additional observations from a re-analysis of the deposited data

How the results depend on the processing

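The number of segments called was 3, and it depended on the tool and the libraries. DESeq2 called 7, limma-voom 1 and the fit with no filter on low counts 49 (28 higher, 21 lower, beside 1.58% of 33271 genes). Without the pair of mutant replicate 1 and wild-type replicate 3 it was 7. Leaving out each library in turn gave 1 to 6, with 1 without wild-type replicate 2 and 6 without mutant replicate 3. The cause was not tested. Of the 3 called segments, Igkv3-4 had log2 fold changes of 5.78 to 7.14 and was called in each of the 6 fits with a library left out, but it entered them through its mutant libraries, so these calls say little of its stability, and it did not enter the fit that required 10 counts in every library. The log2 fold changes of Igkv1-117 (-0.71 to -0.59) and Igkv4-72 (-2.78 to -2.26) kept their direction in these 6 fits. Replicate numbers did not pair the libraries, with correlations of same-numbered deviations of -0.020, -0.025 and -0.085. A fit with a block for replicate number called 4 segments, 2 of them among the 3, and Igkv1-117 had an adjusted p of 0.115. Sums and concentrations moved by less than the spread between replicates under each alternative run, which is a wide limit. That spread (SD of log2 CPM) was 0.38 for Ighv, 0.33 for Igkv and 0.78 for Iglv, beside log2 ratios of 0.08, 0.04 and 0.81. A ratio could thus change sign at Ighv or Igkv, or nearly vanish at Iglv, and still stay within it. With each library left out in turn, the log2 ratio of the mutant to the wild-type mean ran from -0.13 to 0.25 for Ighv, from -0.18 to 0.17 for Igkv and from 0.07 to 1.21 for Iglv. In those fits the mutant minus wild-type difference ran from -4.52 to 7.30 percentage points for the 10 highest segments and from -6.38 to -0.97 for the effective number. Leaving mitochondrial and ribosomal RNA genes out raised the mean levels of Igkv15-103 and Ighv7-1 to 216 and 96.7 CPM, since the same counts are then divided by a smaller total.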

Other observations

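The 158 V pseudogenes of the same loci, which cannot encode a working V domain, summed to 6.26, 5.12 and 3.53 CPM in wild-type replicates 1 to 3 and 3.43, 5.14 and 4.43 CPM in mutant replicates 1 to 3. Wild-type replicate 1 was the highest, mutant replicate 1 the lowest, and the genotypes overlapped. Ighg1, the constant gene of IgG1, stood at 79.9, 30.9 and 46.5 CPM in wild type against 5.99, 3.22 and 22.7 CPM in the mutant, without overlap (edgeR adjusted p = 0.188). The erythroid list had 2 of 8 members called as higher in the mutant by edgeR and by DESeq2, the beta-globin genes Hbb-bt and Hbb-bs, beside 0.189% of all genes called as higher by edgeR, and limma-voom called Hbb-bt alone.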
